A study of Mus musculus with 20 samples.

Results

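The 26 genes described here code for the enzymes that turn acetyl-CoA into cholesterol, for the proteins that control them and for some of their co-regulated targets. They were taken as the rows of the count table whose gene name is in a given list, and each of the 26 names had a row among the 54532 genes of the table. All 26 also passed the filter on low counts and were among the 18336 genes tested. RNA was sequenced from a brain hemisphere of mice of 4 genotypes, with 5 libraries each. DKO mice lacked both Glb1 and Neu3, Glb1KO mice lacked Glb1, Neu3KO mice lacked Neu3, and WT mice, called control in the labels, carried neither knockout. The Glb1 product is a lysosomal enzyme that removes galactose from GM1 ganglioside, and the Neu3 product is a sialidase of gangliosides. The labels name The Jackson Laboratory as the source of healthy mice. The sources used here give no age, strain or allele, and do not say in which cells the knockouts act.

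Cells build cholesterol from acetyl-CoA through mevalonate and isoprenoid diphosphates to squalene, which is closed to lanosterol and then trimmed to cholesterol. The sterol regulatory element-binding proteins (SREBPs), coded by Srebf1 and Srebf2, are transcription factors held in the membrane of the endoplasmic reticulum. When sterols are scarce, the escort protein SCAP carries them to the Golgi for cleavage, and when sterols are plentiful the INSIG proteins retain SCAP. Plasma lipoprotein cholesterol hardly crosses the blood-brain barrier, so the brain makes its own, much of it in oligodendrocytes that build myelin and in astrocytes.

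The promoters of members are shown because SREBPs act there beside the factors NF-Y and Sp1. Of the 26 members, 22 had an entry in the RefSeq promoter table (GRCm38.p6), which runs from 250 bases before the annotated start to 50 bases after it. The 5 genes that were higher in both DKO and Glb1KO than in WT and had an entry are printed, with Hmgcs1 as the only member that held the sterol regulatory element searched for. Capitals mark the sterol regulatory element TCACNCCAC, the NF-Y box CCAAT and the Sp1 box GGGCGG on either strand, and no marked match overlaps another. The annotated start is base 251.
Acat2, chr17:12960676-12960975, minus strand: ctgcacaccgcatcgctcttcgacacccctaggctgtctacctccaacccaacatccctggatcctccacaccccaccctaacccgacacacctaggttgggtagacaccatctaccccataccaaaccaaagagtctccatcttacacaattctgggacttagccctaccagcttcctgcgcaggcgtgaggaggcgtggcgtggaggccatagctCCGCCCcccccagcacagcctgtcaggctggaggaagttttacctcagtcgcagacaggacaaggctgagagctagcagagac
Mvd, chr8:122443373-122443672, minus strand: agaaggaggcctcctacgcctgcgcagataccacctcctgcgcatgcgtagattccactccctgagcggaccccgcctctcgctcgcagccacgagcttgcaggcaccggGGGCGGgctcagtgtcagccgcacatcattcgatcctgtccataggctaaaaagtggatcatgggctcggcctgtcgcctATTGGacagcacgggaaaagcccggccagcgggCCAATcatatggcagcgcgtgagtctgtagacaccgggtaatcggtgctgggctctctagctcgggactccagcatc
Nsdhl, chrX:72918271-72918570, plus strand: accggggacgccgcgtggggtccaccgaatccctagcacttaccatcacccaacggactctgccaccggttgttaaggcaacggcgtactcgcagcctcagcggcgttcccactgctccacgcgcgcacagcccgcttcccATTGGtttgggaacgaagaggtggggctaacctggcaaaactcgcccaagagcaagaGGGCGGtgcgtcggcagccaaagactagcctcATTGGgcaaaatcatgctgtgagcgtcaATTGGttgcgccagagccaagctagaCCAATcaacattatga
Hsd17b7, chr1:169969156-169969455, minus strand: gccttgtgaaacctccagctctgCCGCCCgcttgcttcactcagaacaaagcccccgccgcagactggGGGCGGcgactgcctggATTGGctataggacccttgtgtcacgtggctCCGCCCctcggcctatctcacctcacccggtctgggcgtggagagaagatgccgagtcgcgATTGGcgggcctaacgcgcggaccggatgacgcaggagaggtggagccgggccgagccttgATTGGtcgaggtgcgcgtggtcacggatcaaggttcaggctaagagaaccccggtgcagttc
Insig1, chr5:28071162-28071461, plus strand: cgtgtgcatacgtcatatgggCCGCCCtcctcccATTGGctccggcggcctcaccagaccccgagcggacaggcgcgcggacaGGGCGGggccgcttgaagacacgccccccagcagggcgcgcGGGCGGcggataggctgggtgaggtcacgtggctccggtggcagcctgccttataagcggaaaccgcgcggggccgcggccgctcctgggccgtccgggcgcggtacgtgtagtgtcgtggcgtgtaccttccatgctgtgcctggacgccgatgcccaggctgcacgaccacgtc
Hmgcs1, chr13:119690101-119690400, plus strand: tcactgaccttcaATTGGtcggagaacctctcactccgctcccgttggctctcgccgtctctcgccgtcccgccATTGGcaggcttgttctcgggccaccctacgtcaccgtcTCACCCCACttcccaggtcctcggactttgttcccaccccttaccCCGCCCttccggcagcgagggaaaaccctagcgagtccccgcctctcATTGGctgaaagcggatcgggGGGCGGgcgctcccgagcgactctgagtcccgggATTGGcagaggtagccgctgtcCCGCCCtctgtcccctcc

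The sterol regulatory element was found in 1 of 22 member genes, against 1.44% of the 27025 genes in the table. It began 137 bases before the Hmgcs1 start. The NF-Y box was in 20 of 22 member genes (90.9%), against 41.1% of all genes, and the Sp1 box was in 19 of 22 (86.4%), against 38.2%. Of the promoters printed above, Hmgcs1 and Nsdhl held 4 NF-Y boxes each, Hsd17b7 held 3, Mvd 2, Insig1 1 and Acat2 none. Such matches describe the letters of the window and do not show binding. Only the exact letters given above were searched, within this window, so a missing match does not show that a gene lacks the element.

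The libraries held 16682458 to 18525446 counts in DKO, 15734414 to 20391893 counts in Glb1KO, 15162311 to 25145806 counts in Neu3KO and 16649633 to 19212266 counts in WT. Values below are CPM, the count of a gene scaled to a common library size with TMM factors, given in the order of replicates 1 to 5, and errors are SD over 5 libraries. As a test of the labels, Glb1 was at 4 ± 1.07 CPM in DKO, 3.38 ± 0.903 CPM in Glb1KO, 20.5 ± 1.34 CPM in Neu3KO and 20.2 ± 1.32 CPM in WT. Neu3 was at 2.98 ± 0.826 CPM in DKO, 4.06 ± 0.621 CPM in Glb1KO, 2.86 ± 0.409 CPM in Neu3KO and 3.85 ± 1.22 CPM in WT, and the ranges of these groups overlapped, so gene-level counts checked the Glb1 labels and hardly the Neu3 labels. Each library has its own identifier, but the labels do not say that each came from a separate animal, so p-values measure the spread between libraries. WT replicate 1 stood apart from the other WT libraries, with a chi-square per gene of 21.85 to 29.76 in its 4 pairs, against 3.44 to 5.51 in the other 6 WT pairs. Without it 11 of the 26 genes were called in DKO against WT and 7 in Glb1KO against WT. The medians of the 26 genes were then 0.24 and 0.20 on the log2 scale. Of all 18576 genes tested in that fit, 4840 were called in DKO against WT and 595 in Glb1KO against WT. In a bulk hemisphere, fewer cells of a type and less RNA per cell cannot be told apart.

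Levels per length were compared with the deposited FPKM values (fragments scaled to gene length and library size), which use the gene length given in the table. In WT the highest were the transcription factor gene Srebf2 at 40.9 ± 3.35 FPKM, Hmgcs1 at 40.7 ± 4.07 FPKM and Fasn at 39.7 ± 2.05 FPKM, which overlapped each other. Insig1 followed at 23.9 ± 2.15 FPKM and overlapped neither neighbour. Fdft1 at 16.5 ± 1.01 FPKM, Sc5d at 16.5 ± 1.51 FPKM and Cyp51, with 14.9 to 17.4 FPKM, overlapped. The 8 genes from Insig2 at 13.6 FPKM to Sqle at 10.7 FPKM formed a run in which each overlapped the next, as did the 8 from Mvd at 8.02 FPKM to Hsd17b7 at 4.55 FPKM. Lss at 3.75 ± 0.129 FPKM and Tm7sf2 at 2.85 ± 0.167 FPKM each stood apart from the genes beside them. Fdps, which codes for farnesyl diphosphate synthase, was lowest at 0.258 ± 0.0401 FPKM, from 7 to 52 reads per library over all genotypes. The genome holds near-identical copies of this gene, so its values are uncertain.

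**Figure D1:**
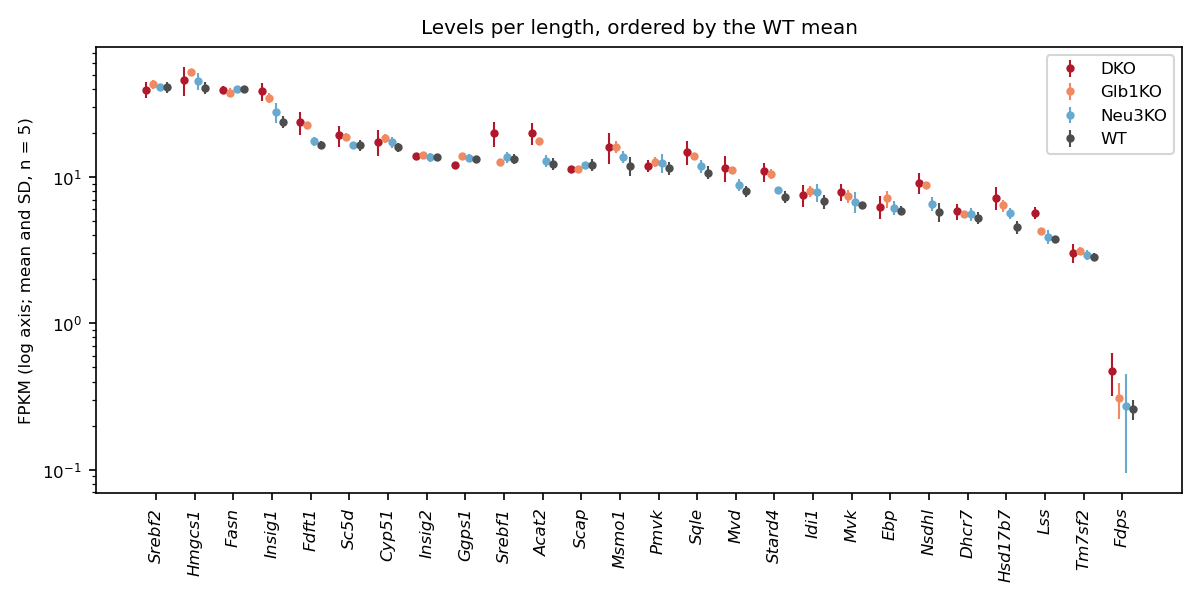
Levels of the 26 genes in FPKM on a log axis, ordered by the WT mean; points are means and bars are SD of 5 libraries for DKO, Glb1KO, Neu3KO and WT. Srebf2, Hmgcs1 and Fasn lie near 40 FPKM in WT, and Fdps lies far below the rest at 0.258 FPKM in WT.

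The first comparison, DKO over WT, is the one stated in the study's design. Of the 26 genes, 12 rose in DKO and none fell, with folds of 1.23 to 1.62, and the 3 genes from squalene synthesis to lanosterol were among the 12. Of all genes tested, 29.0% were called in this comparison, 14.0% higher and 15.1% lower. The median log2 fold change of the 26 genes was 0.25, against 0 over all genes. The groups did not overlap for 8 of the 26 genes, against 18.6% of all genes. The test was edgeR's quasi-likelihood F test with Benjamini-Hochberg adjustment over all genes, called at an adjusted p under 0.05.

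**Figure D2:**
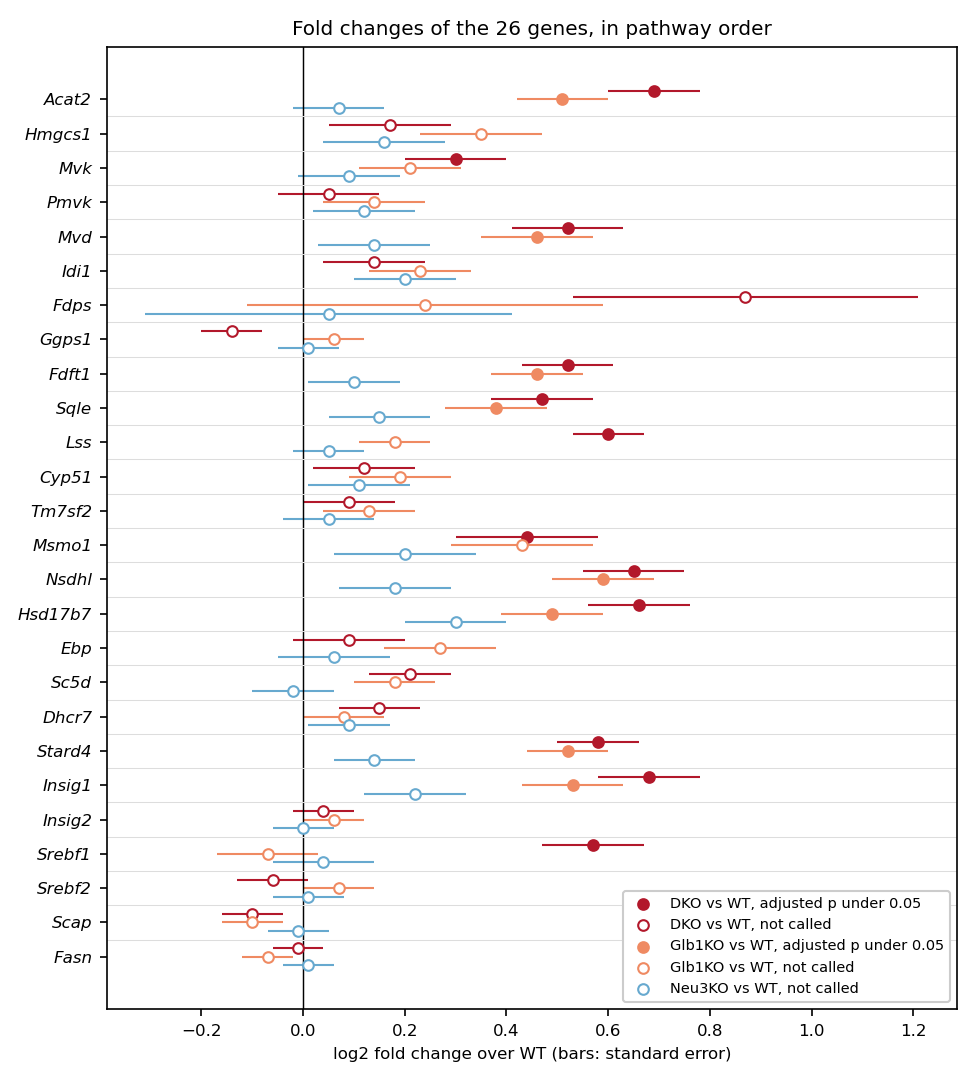
Log2 fold change over WT of each gene in pathway order, for DKO, Glb1KO and Neu3KO; bars are standard errors and filled points have an adjusted p under 0.05. DKO has 12 filled points, Glb1KO has 8 and Neu3KO has none, and Mvk, Lss, Msmo1 and Srebf1 are filled for DKO and not for Glb1KO.

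Of the 6 mevalonate pathway genes, 3 rose in DKO (50%, beside 14.0% of all genes called higher). Acat2, the thiolase that makes acetoacetyl-CoA, had 61.6, 51.8, 57.6, 43.4 and 41.9 CPM in DKO, 47.1, 47.7, 43.9, 43.9 and 43.1 CPM in Glb1KO, 32.5, 34.2, 38.1, 30.6 and 30.3 CPM in Neu3KO and 32.7, 35.5, 32.4, 28.9 and 28.9 CPM in WT. All DKO libraries lay above all WT libraries (log2 0.69, SE 0.09, adjusted p = 1.93e-07). Mvd, the decarboxylase that yields isopentenyl diphosphate, had 23.9, 24.7, 25.6, 16.6 and 17.1 CPM in DKO, 20.03, 22.3, 20.4, 21.5 and 19.6 CPM in Glb1KO, 16.1, 18.2, 16.98, 17.5 and 14.2 CPM in Neu3KO and 14.48, 15.2, 14.2, 17.3 and 14.1 CPM in WT. Its DKO replicates 4 and 5 lay within the WT range and the other 3 lay above it (log2 0.52, SE 0.11, adjusted p = 0.000261). Mvk, mevalonate kinase, averaged 21.3 ± 2.95 CPM in DKO and 17.3 ± 0.651 CPM in WT (log2 0.30, SE 0.10, adjusted p = 0.0264), and without DKO replicate 1, DKO replicate 2 or WT replicate 3 it was not called. Hmgcs1, the HMG-CoA synthase that feeds mevalonate synthesis, had 266.8, 259.7, 189.7, 172 and 175 CPM in DKO, 250.5, 232, 235, 231 and 256 CPM in Glb1KO, 188, 216, 254, 209.5 and 184 CPM in Neu3KO and 168, 204, 188, 211 and 172 CPM in WT. Its DKO replicates 1 and 2 exceeded every WT library, while the other 3 lay within the WT range, and the difference did not pass the test (log2 0.17, SE 0.12, adjusted p = 0.333). Pmvk, the next kinase, was at 0.05 (adjusted p = 0.774) and Idi1, the isomerase of isopentenyl diphosphate, at 0.14 (adjusted p = 0.343) on the log2 scale.

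The prenyl chain enzymes were not called against WT. Fdps averaged 2.01 ± 0.667 CPM in DKO and 1.1 ± 0.172 CPM in WT (log2 0.87, SE 0.34, adjusted p = 0.0525, called in 7 of 20 other fits), from 20 to 52 reads per DKO library and 15 to 25 per WT library. Ggps1, which makes the geranylgeranyl diphosphate used in protein prenylation, had 58.9, 53, 59.3, 60.1 and 55.4 CPM in DKO, 64.3, 64.5, 68.7, 63.2 and 68.6 CPM in Glb1KO, 60.2, 65.2, 59.5, 68.2 and 66.5 CPM in Neu3KO and 61.2, 63, 64.4, 62.3 and 65.3 CPM in WT. Every DKO library lay below every WT library, by a small difference that missed the threshold (log2 -0.14, SE 0.06, adjusted p = 0.0533).

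All 3 genes from farnesyl diphosphate to lanosterol rose in DKO, beside 14.0% of all genes called higher. Fdft1, squalene synthase, had 115, 120.1, 105, 80.5 and 81.6 CPM in DKO, 94.8, 92.9, 98.4, 94.6 and 101 CPM in Glb1KO, 75.2, 77.4, 82.4, 68 and 72.5 CPM in Neu3KO and 63.5, 74.3, 70.7, 73.5 and 69.2 CPM in WT. All DKO libraries lay above the WT libraries (log2 0.52, SE 0.09, adjusted p = 3.12e-05). Fdft1 shares 774 of its 4227 annotated exon bases (18.3%, GENCODE M21) with Ctsb on the opposite strand. Ctsb codes for the lysosomal protease cathepsin B, had 863% of the Fdft1 mean count, and was itself higher in DKO (log2 1.29, SE 0.05, adjusted p = 2.5e-21). In DKO against Glb1KO Ctsb was at 0.97 (adjusted p = 2.39e-17) and Fdft1 at 0.06 (adjusted p = 0.707) on the log2 scale. In DKO against Neu3KO Ctsb was at 1.26 (adjusted p = 7.41e-21) and Fdft1 at 0.42 (adjusted p = 0.00045). The sources used here do not state whether counting used the strand, so the Fdft1 values are uncertain and the share of Ctsb reads in them was not tested.

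Sqle, the squalene epoxidase that is a rate-limiting enzyme of the pathway, had 97.8, 97.3, 85.8, 63.6 and 69.97 CPM in DKO, 79.2, 74.9, 79.8, 78.6 and 76.3 CPM in Glb1KO, 64.1, 68.4, 77.1, 61.6 and 59.9 CPM in Neu3KO and 54.5, 65.9, 62.6, 63.2 and 52.2 CPM in WT. DKO replicate 4 lay within the WT range and the other 4 lay above it (log2 0.47, SE 0.10, adjusted p = 0.000648). Lss, the synthase that closes the ring to lanosterol, had 55.1, 60.5, 70.9, 61.3 and 60.6 CPM in DKO, 44.7, 47.3, 49.5, 45 and 44.5 CPM in Glb1KO, 40.6, 44.2, 48.6, 41.8 and 36.1 CPM in Neu3KO and 41.9, 41.6, 38.5, 41.8 and 40.3 CPM in WT. The DKO libraries stood above all 15 others (log2 0.60, SE 0.07, adjusted p = 3.29e-08).

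Of the 8 enzymes between lanosterol and cholesterol, 3 rose in DKO (37.5%, beside 14.0% of all genes called higher). Hsd17b7, a sterol ketoreductase, had 47.5, 37.6, 36.8, 29.9 and 33.5 CPM in DKO, 35.5, 32.1, 29.8, 30.3 and 36.9 CPM in Glb1KO, 25.7, 27.2, 30.4, 31.1 and 30.3 CPM in Neu3KO and 20.4, 25.9, 21.6, 23.8 and 25.5 CPM in WT. All DKO libraries lay above the WT libraries (log2 0.66, SE 0.10, adjusted p = 2.28e-06). Nsdhl, the dehydrogenase that works with it to remove methyl groups, had 28, 29.2, 30.6, 21.1 and 22 CPM in DKO, 24.2, 26.6, 26.3, 24.6 and 24.1 CPM in Glb1KO, 21.6, 19.5, 17.04, 16.8 and 19.4 CPM in Neu3KO and 12.7, 16.8, 19.5, 17.4 and 17.2 CPM in WT, again without overlap between DKO and WT (log2 0.65, SE 0.10, adjusted p = 9.89e-06). WT replicate 1 was lowest, and without it the log2 difference was 0.57 (adjusted p = 4.85e-05). Msmo1, the methylsterol oxidase of the same steps, averaged 99.9 ± 23.6 CPM in DKO and 73.7 ± 10.5 CPM in WT, with overlap (log2 0.44, SE 0.14, adjusted p = 0.0244), and its call was lost without DKO replicate 1, DKO replicate 2 or WT replicate 1. The demethylase Cyp51 was at 0.12 (adjusted p = 0.398), the reductase Tm7sf2 at 0.09 (adjusted p = 0.54) and the isomerase Ebp at 0.09 (adjusted p = 0.601) on the log2 scale. The desaturase Sc5d was at 0.21 (adjusted p = 0.0573), a value near the threshold that 12 of 20 fits with another setting or set of libraries called, and Dhcr7, a reductase of the last steps, at 0.15 (adjusted p = 0.19). The median of the 8 log2 fold changes was 0.18.

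Stard4, which carries sterols between membranes and is an SREBP target, had 72.6, 67.7, 62.4, 50.5 and 54.6 CPM in DKO, 60.9, 56.4, 66.2, 55.3 and 56.8 CPM in Glb1KO, 44.6, 48.2, 46.1, 45.8 and 43.2 CPM in Neu3KO and 37.4, 46.1, 41.1, 44.7 and 37.3 CPM in WT. DKO and WT did not overlap (log2 0.58, SE 0.08, adjusted p = 9.47e-07). Among the regulators, Insig1, which retains SCAP when sterols are plentiful and whose own gene is an SREBP target, had 136, 118, 137, 109.9 and 97.9 CPM in DKO, 114, 107, 113, 93.9 and 109.9 CPM in Glb1KO, 74.9, 102, 96.9, 87.3 and 71.1 CPM in Neu3KO and 66.1, 73.8, 75, 85 and 72.8 CPM in WT. DKO and WT did not overlap here either (log2 0.68, SE 0.10, adjusted p = 1.94e-05). Its relative Insig2 stayed within 48.3 to 49.5 CPM in DKO, against 46.9 to 49.2 CPM in WT (log2 0.04, SE 0.06, adjusted p = 0.626). Srebf1 had 83.1, 102, 125, 111 and 139 CPM in DKO, 74.1, 76.6, 70.3, 71.3 and 67.6 CPM in Glb1KO, 79.4, 86.9, 70.3, 80.4 and 72.1 CPM in Neu3KO and 69.8, 69, 83.4, 80.2 and 75.6 CPM in WT. The 4 DKO replicates 2 to 5 exceeded every other library, and replicate 1 lay within the WT range (log2 0.57, SE 0.10, adjusted p = 6.35e-05). Srebf2 averaged 286 ± 37.2 CPM in DKO and 297 ± 24.6 CPM in WT (log2 -0.06, SE 0.07, adjusted p = 0.605), the escort gene Scap was at -0.10 (95% interval -0.22 to 0.02) and Fasn, fatty acid synthase, at -0.01 (95% interval -0.12 to 0.10) on the log2 scale.

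Other members also share ground with a neighbour on the opposite strand. Srebf1 shares 109 of 5634 exon bases with Rai1, which was lower in DKO than in WT (log2 -0.27, adjusted p = 0.000509) while Srebf1 was higher. Cyp51 shares 166 of 4415 with Akap9 (log2 -0.19, adjusted p = 0.00696 in DKO vs WT), and Ggps1 257 of 4721 with Arid4b, which was not called (log2 0.11, adjusted p = 0.142). Tm7sf2 shares 532 of 4403 with Vps51 on its own strand (log2 0.38, adjusted p = 0.285). Of the 26 genes, 13 overlap no other gene of the table, and in 8 the overlapping genes had under 10% of the member's mean count.

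**Figure D3:**
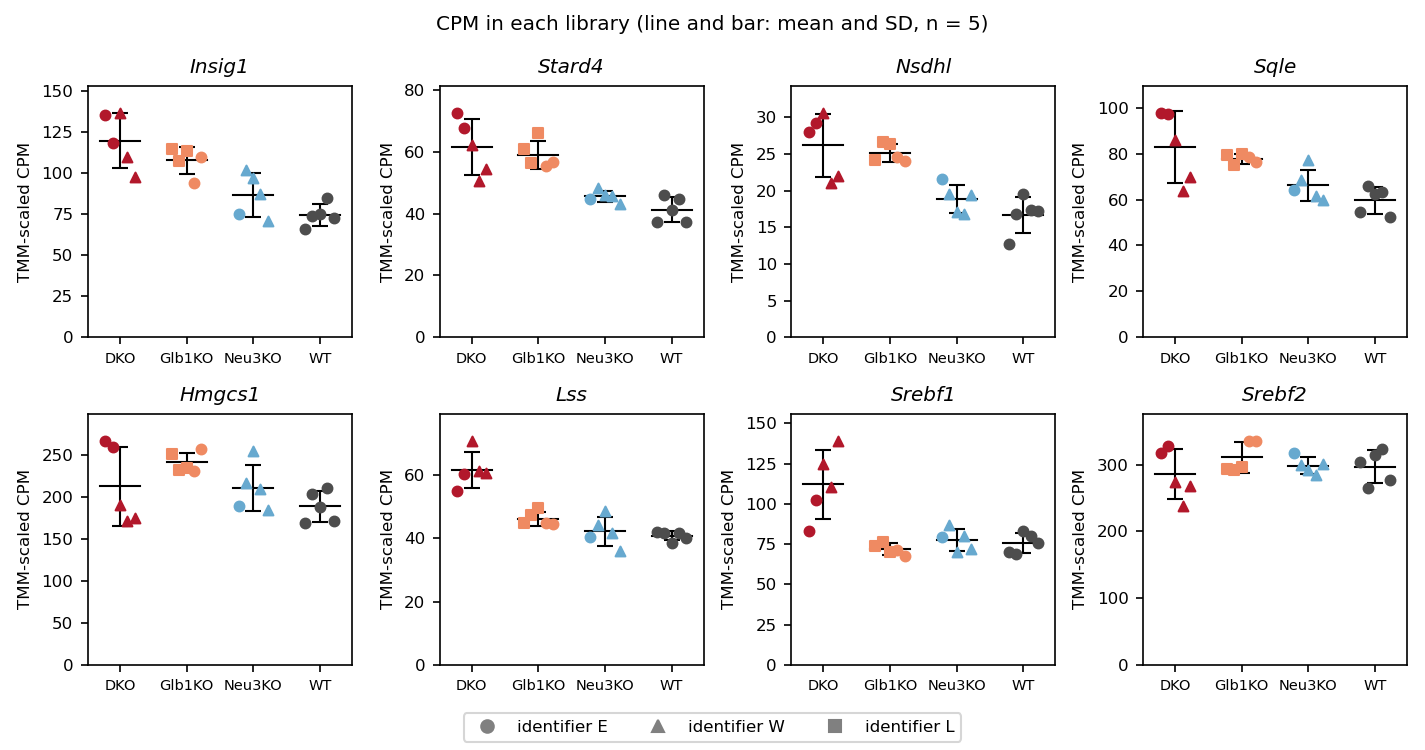
CPM of 8 of the genes in every library, by genotype; the horizontal line and bar are the mean and SD of 5 libraries, and the marker shape gives the first letter of the library's identifier. Lss and Srebf1 are highest in DKO, Lss in Glb1KO lies between DKO and WT, Stard4 and Nsdhl are high in DKO and Glb1KO, and Hmgcs1 splits the DKO libraries into 2 high ones near 260 CPM and 3 near 172 to 190 CPM.

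Glb1KO was compared with WT to measure the loss of Glb1 alone. Of the 26 genes, 8 rose in Glb1KO and none fell, with folds of 1.30 to 1.51, while 3.96% of all genes were called, 1.75% higher and 2.21% lower. The median log2 fold change was 0.22, against 0 over all genes, and 23 of 26 values were positive. The groups did not overlap for 11 of the 26 genes, against 5.56% of all genes. The Glb1KO libraries were close to each other, and the median coefficient of variation over the 26 genes was 6.24% in Glb1KO and 8.99% in WT, beside 16.6% in DKO.

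Nsdhl rose most (log2 0.59, SE 0.10, adjusted p = 0.000254), with means of 25.2 ± 1.21 CPM in Glb1KO and 16.7 ± 2.48 CPM in WT, and a log2 difference of 0.51 (adjusted p = 0.00131) without WT replicate 1. Insig1 averaged 108 ± 8.28 CPM in Glb1KO and 74.5 ± 6.78 CPM in WT (log2 0.53, SE 0.10, adjusted p = 0.0021). Stard4 averaged 59.1 ± 4.51 CPM in Glb1KO and 41.3 ± 4.05 CPM in WT (log2 0.52, SE 0.08, adjusted p = 3.42e-05). Acat2 was called at log2 0.51, SE 0.09, adjusted p = 0.000219, Hsd17b7 at log2 0.49, SE 0.10, adjusted p = 0.00125, Mvd at log2 0.46, SE 0.11, adjusted p = 0.00591 and Sqle at log2 0.38, SE 0.10, adjusted p = 0.0244. The Sqle call was lost without Glb1KO replicate 1 or 3 or WT replicate 1 or 5. For each of these 7 genes every Glb1KO library lay above every WT library. Fdft1 was called too (log2 0.46, SE 0.09, adjusted p = 0.00098), beside a rise of its neighbour Ctsb (log2 0.32, adjusted p = 1.35e-05).

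Msmo1 at 0.43 (adjusted p = 0.103), Hmgcs1 at 0.35 (adjusted p = 0.138) and Lss at 0.18 (adjusted p = 0.172) on the log2 scale were not called, although the Glb1KO libraries lay above all WT libraries for these 3 genes. Srebf1 averaged 72 ± 3.47 CPM in Glb1KO and 75.6 ± 6.29 CPM in WT and was not called (log2 -0.07, SE 0.10, adjusted p = 0.795, 95% interval of log2 from -0.27 to 0.13). Srebf2 was at 0.07 (adjusted p = 0.706), Scap at -0.10 (adjusted p = 0.433), Insig2 at 0.06 (adjusted p = 0.654) and Fasn at -0.07 (adjusted p = 0.509). The 8 genes called here were 8 of the 12 called higher in DKO. Both comparisons use the same WT libraries, so this count is no independent repeat.

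Neu3KO was compared with WT to measure the loss of Neu3 alone. None of the 26 genes was called by edgeR, nor by DESeq2, and 0% of all genes were called by edgeR. The median log2 fold change of the 26 genes was 0.09, against 0 over all genes, with 23 of 26 values positive. Before adjustment, 2 genes were under 0.05 in edgeR, Hsd17b7 (log2 0.30, SE 0.10, adjusted p = 0.689) and Insig1 (log2 0.22, SE 0.10, adjusted p = 0.823). Neu3KO overlapped WT for every one of the 26 genes, while 1.18% of all genes did not overlap. The interval of Srebf1 was 0.04 (95% interval -0.16 to 0.25) and that of Lss 0.05 (95% interval -0.10 to 0.20), while Nsdhl was at 0.18 (95% interval -0.04 to 0.41) and Stard4 at 0.14 (95% interval -0.03 to 0.31). The Glb1KO estimates over the same WT libraries were 0.59 for Nsdhl and 0.52 for Stard4.

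DKO was compared with Glb1KO to measure what the loss of Neu3 adds where Glb1 is already lost. Lss and Srebf1 rose and Ggps1 fell in DKO, while 15.7% of all genes were called, 8.41% higher and 7.29% lower. Lss averaged 61.7 ± 5.72 CPM in DKO and 46.2 ± 2.18 CPM in Glb1KO (log2 0.42, SE 0.07, adjusted p = 3.84e-05). Srebf1 averaged 112 ± 21.5 CPM in DKO and 72 ± 3.47 CPM in Glb1KO (log2 0.64, SE 0.10, adjusted p = 3.11e-05). Ggps1 averaged 57.3 ± 3.01 CPM in DKO and 65.8 ± 2.59 CPM in Glb1KO (log2 -0.20, SE 0.06, adjusted p = 0.0106). Lss and Srebf1 lay above Glb1KO in every DKO library, as did 6.78% of all genes, and Ggps1 lay below it in every DKO library, as did 5.25% of all genes. The Ggps1 call was lost with the first letter of the library identifiers as a term (adjusted p = 0.0649), among libraries with the letter E (adjusted p = 0.204) and with only the DKO libraries of letter W (adjusted p = 0.0559). The median over the 26 genes was 0.06. The intervals of the other sterol genes include 0 or end at it, as for Nsdhl at 0.06 (95% interval -0.16 to 0.27), Stard4 at 0.06 (95% interval -0.11 to 0.22), Insig1 at 0.15 (95% interval -0.06 to 0.36) and Acat2 at 0.18 (95% interval 0.00 to 0.37).

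The interaction of the knockouts, which sets the effect of Neu3 loss in mice without Glb1 against its effect in mice with Glb1, was called for Lss (log2 0.37, SE 0.10, adjusted p = 0.0188) and Srebf1 (log2 0.60, SE 0.14, adjusted p = 0.00678), both positive, and for 6.84% of all genes, 3.96% positive and 2.88% negative. For Lss the effect of Neu3 loss was 0.42 on the log2 scale with Glb1 lost and 0.05 with Glb1 present. For Srebf1 it was 0.64 with Glb1 lost and 0.04 with Glb1 present. Ggps1 was at -0.21 (adjusted p = 0.103) and Hmgcs1 at -0.34 (adjusted p = 0.317). Without DKO replicate 3 or without Neu3KO replicate 5 the interaction of Lss lost its call, at 0.31 on the log2 scale in both fits (adjusted p = 0.0518 and 0.0524), and Srebf1 kept its call in both.

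DKO was compared with Neu3KO to measure what the loss of Glb1 adds where Neu3 is already lost. Of the 26 genes, 11 rose and 1 fell, while 25.1% of all genes were called, 12.3% higher and 12.8% lower. The median log2 fold change was 0.22. The genes that rose were Acat2 (log2 0.63, SE 0.09, adjusted p = 1.24e-06), Mvd, Fdft1, Sqle, Lss, Nsdhl, Hsd17b7, Sc5d, Stard4, Insig1 and Srebf1, and Ggps1 fell (log2 -0.16, SE 0.06, adjusted p = 0.0362). Lss stood at 0.55 (adjusted p = 2e-07) and Srebf1 at 0.53 (adjusted p = 0.000178). Sc5d passed in this comparison (log2 0.23, SE 0.08, adjusted p = 0.0454), but its call and that of Ggps1 were lost in most fits that left out 1 library, while Mvk and Msmo1, called against WT, were at 0.21 (adjusted p = 0.132) and 0.24 (adjusted p = 0.243). The groups did not overlap for 3 genes, Acat2, Lss and Stard4, against 15.6% of all genes.

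The DKO libraries differed among themselves along the first letter of their identifiers, whose meaning the sources used here do not give. Replicates 1 and 2 carry the letter E, as do all WT libraries, and replicates 3 to 5 carry W. The Glb1KO libraries carry L in replicates 1 to 3 and E in the other 2, and the Neu3KO libraries carry E in replicate 1 and W in the other 4. In each library the median over the 26 genes of log2 CPM minus the WT mean was taken. It was 0.46 and 0.40 in the E libraries of DKO and 0.27, 0.05 and 0.07 in its W libraries. It was 0.29, 0.22, 0.27, 0.22 and 0.20 in Glb1KO, 0.08, 0.17, 0.20, 0.05 and -0.04 in Neu3KO and -0.06 to 0.07 in WT. Both E libraries of DKO exceeded its 3 W libraries for 14 of the 26 genes, against 17.0% of all genes, and lay below them for Lss and Srebf1, against 13.4% of all genes. Summed over the 15 myelin markers, the DKO libraries held 5003 and 4533 CPM with the letter E and 4272, 3781 and 3876 CPM with W, and the part of this in the result was not tested.

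**Figure D4:**
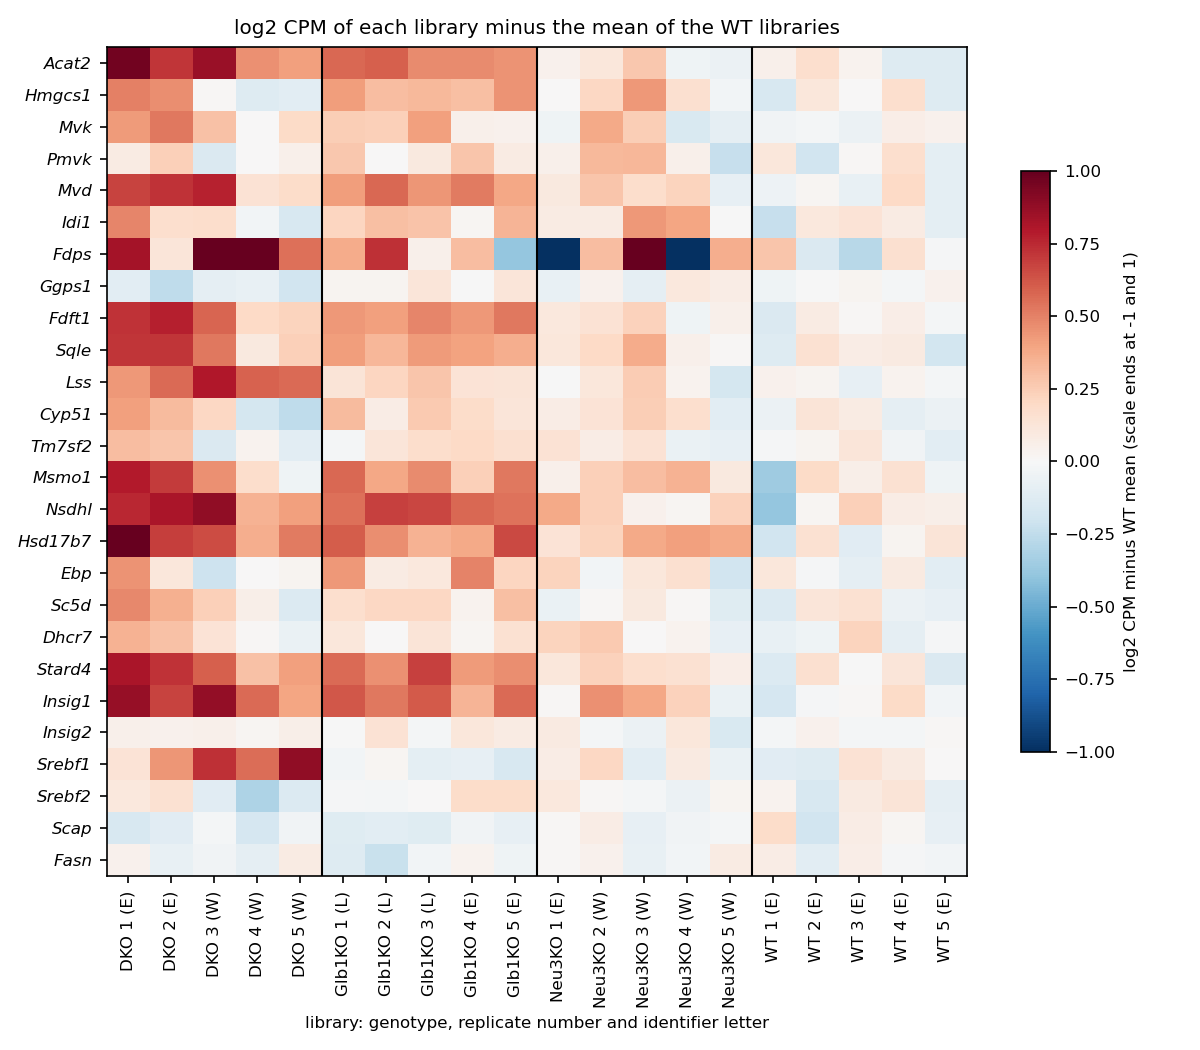
Log2 CPM of each gene in each library minus the mean of the 5 WT libraries, with the scale ending at -1 and 1; columns are grouped as DKO, Glb1KO, Neu3KO and WT and marked with replicate number and identifier letter. DKO replicates 1 and 2 are high for most sterol enzymes, DKO replicates 4 and 5 are near WT for many of them, and Srebf1 is highest in DKO replicate 5.

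Because of this split each comparison was also made within letters, in edgeR fits limited to the libraries named. Among the E libraries, DKO (2 libraries) against WT (5 libraries) called 16 of the 26 genes, all higher, with a median of 0.46, while 12.9% of all genes were called. The 12 genes called over all libraries were among them, and Hmgcs1 (log2 0.49, adjusted p = 0.000109), Cyp51 (0.37, adjusted p = 0.0013), Sc5d (0.43, adjusted p = 0.00132) and Dhcr7 (0.33, adjusted p = 0.0243) joined them. Glb1KO (2 libraries) against WT among the E libraries called 9 genes, all higher, while 1.61% of all genes were called, with Hmgcs1 added (0.37, adjusted p = 0.0108). DKO against Glb1KO among the E libraries, with 2 each, called Mvk (0.44, adjusted p = 0.0484), Lss (0.38, adjusted p = 0.0217) and Srebf1 (0.42, adjusted p = 0.0186), all higher, while 4.48% of all genes were called. DKO against Neu3KO among the E libraries, with 1 Neu3KO library that is assumed to vary like the others, called 12 genes, all higher, and 4.39% of all genes. They hold 9 of the 12 called over all libraries. Srebf1 (0.23, adjusted p = 0.446, against 0.53 over all libraries), Nsdhl (0.41, adjusted p = 0.272) and Ggps1 (-0.10, adjusted p = 0.802) were not called there. Neu3KO against WT called none of the 26 and 0.00498% of all genes there, and the interaction called none of the 26 and 0.911% of all genes.

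With the 3 W libraries of DKO set against all WT libraries, a fit chosen after seeing the data, 11 genes were higher and Srebf2 was lower (log2 -0.19, adjusted p = 0.0329), while 27.8% of all genes were called and the median of the 26 genes was 0.12. Hmgcs1 was then at -0.08 (adjusted p = 0.554) and Cyp51 at -0.06 (adjusted p = 0.666), Mvk and Msmo1 were no longer called, and Insig1 was at 0.63 (adjusted p = 0.000408), Lss at 0.66 (adjusted p = 6.96e-08) and Srebf1 at 0.73 (adjusted p = 4.01e-09). Against all Glb1KO libraries the W libraries of DKO were higher for Lss (0.48, adjusted p = 3.32e-05) and Srebf1 (0.80, adjusted p = 1.14e-09). They were lower for Hmgcs1 (-0.43, adjusted p = 0.00057), Cyp51 (-0.25, adjusted p = 0.0435), Ebp (-0.33, adjusted p = 0.0495) and Srebf2 (-0.25, adjusted p = 0.00667), while 17.5% of all genes were called and the median of the 26 genes was -0.07. Among W libraries alone, DKO (3 libraries) against Neu3KO (4 libraries) called Acat2, Lss, Nsdhl, Stard4 and Srebf1 higher and Hmgcs1 lower (-0.26, adjusted p = 0.0358), with 20.8% of all genes called. Lss and Srebf1 were called higher in DKO against WT and against Glb1KO with either letter of DKO, and Lss also against Neu3KO, where Srebf1 was called among W libraries (0.70, adjusted p = 5.53e-06) and not among E libraries. With the letter as a term over all libraries, 15 genes were called in DKO against WT (18.3% of all genes) and 5 in Glb1KO against WT (1.72% of all genes). None was called in Neu3KO against WT, 2 in DKO against Glb1KO (6.56% of all genes), 11 in DKO against Neu3KO (26.9% of all genes) and 3 for the interaction (6.06% of all genes). Glb1KO then lost the calls of Mvd (0.45, adjusted p = 0.107), Sqle (0.38, adjusted p = 0.133) and Insig1 (0.45, adjusted p = 0.153).

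Other genes of SREBP biology were read from 3 lists. Of 17 further SREBP targets, chiefly but not all of fatty acid synthesis, 6 rose and none fell in DKO against WT (35.3% called, beside 29.0% of all genes). The list median was 0.07. In DKO against Neu3KO 6 rose and 2 fell (47.1% called, beside 25.1% of all genes). Gpam, the acyltransferase that starts glycerolipid synthesis, rose most (log2 0.94, SE 0.07, adjusted p = 1.48e-13), followed by the desaturase Fads2 (log2 0.33, SE 0.06, adjusted p = 8.39e-05), the citrate carrier Slc25a1 (log2 0.26, SE 0.08, adjusted p = 0.00948) and the acetoacetyl-CoA synthetase Aacs (log2 0.28, SE 0.08, adjusted p = 0.0125). Tmem97 and Acacb were the other 2. In Glb1KO none of the 17 was called, with Scd2, a stearoyl-CoA desaturase, at -0.15 (adjusted p = 0.0606), Tmem97 at 0.37 (adjusted p = 0.0655), Aacs at 0.22 (adjusted p = 0.154) and Scd1 at -0.16 (adjusted p = 0.248). In DKO against Glb1KO 4 rose and none fell (23.5% called, beside 15.7% of all genes). Gpam (log2 0.91, SE 0.09, adjusted p = 9.61e-09) and Slc25a1 (log2 0.34, SE 0.11, adjusted p = 0.0484) passed the interaction test. They made up 11.8% of the list, beside 6.84% of all genes that passed. Neu3KO had none called.

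Of 14 genes for the proteases, ligases and coat proteins that process SREBPs, SCAP and INSIG, 1 rose and 1 fell in DKO against WT. That was 14.3% of the list, beside 29.0% of all genes called. Erlin2, which takes part in the degradation of sterol-regulated proteins, rose (log2 0.23, SE 0.06, adjusted p = 0.00639), and the ubiquitin ligase Syvn1 fell (log2 -0.31, SE 0.09, adjusted p = 0.00816), while Rnf145 was at -0.13 (adjusted p = 0.0775) and Sec24d at 0.16 (adjusted p = 0.19). None was called in Glb1KO, where Syvn1 was at -0.24 (adjusted p = 0.136), Rnf145 at -0.13 (adjusted p = 0.215), Erlin2 at 0.08 (adjusted p = 0.617) and Rnf139 at -0.09 (adjusted p = 0.668). Of 16 genes of the non-sterol branch, which makes dolichol, ubiquinone and prenylated proteins, Icmt fell (log2 -0.75, SE 0.07, adjusted p = 5.98e-10) and Srd5a3 rose (log2 0.40, SE 0.09, adjusted p = 0.0016) in DKO, with Nus1 at -0.10 (adjusted p = 0.152). Icmt and Srd5a3 made up 12.5% of this list, beside 29.0% of all genes called. Icmt methylates prenylated proteins, Srd5a3 makes dolichol, and Icmt also passed the interaction test (log2 -0.51, SE 0.10, adjusted p = 0.000825). Of the list 6.25% passed that test, beside 6.84% of all genes. None of the 16 was called in Glb1KO, where Fnta was at -0.15 (adjusted p = 0.131), Icmt at -0.14 (adjusted p = 0.331) and Coq2 at 0.11 (adjusted p = 0.387).

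Markers of several brain cell types differed between the genotypes as well. Of all genes, 29.0% were called in DKO against WT and 3.96% in Glb1KO against WT. In DKO, 33.3% of the endothelial and mural markers and 20% of the choroid plexus markers were called, with list medians of 0.07 each. All 15 myelin and oligodendrocyte markers fell in DKO (median log2 -0.94, with Mbp at -0.44 and Mobp at -0.62) and in Glb1KO (median -0.90, with Mbp at -0.70 and Mobp at -0.73), and none was called in Neu3KO. Their summed level ran from 3780 to 5000 CPM in DKO, 3740 to 4270 CPM in Glb1KO, 6060 to 6820 CPM in Neu3KO and 6000 to 6810 CPM in WT. Of 10 astrocyte markers, 8 rose in DKO (Glul 0.21, Aldoc 0.53) and none in Glb1KO, and Slc1a2 was at -0.01 (adjusted p = 0.908) in DKO. The sum of the 10 ran from 7310 to 8080 CPM in DKO, 6370 to 6750 CPM in Glb1KO, 6120 to 6810 CPM in Neu3KO and 5860 to 6400 CPM in WT.

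All 6 reactive astrocyte markers rose in DKO (Gfap 4.36, Serpina3n 4.84, Vim 2.27), with sums of 4270 to 5070 CPM, and 3 rose in Glb1KO, with sums of 478 to 665 CPM, against 233 to 286 CPM in Neu3KO and 229 to 300 CPM in WT. Of 11 microglia markers, 9 rose in DKO (Csf1r 0.63, C1qa 2.62, C1qb 2.54), with sums of 625 to 800 CPM, and 7 in Glb1KO, with 315 to 361 CPM, against 227 to 264 CPM in Neu3KO and 185 to 230 CPM in WT. Of 9 neuron markers, 4 fell in DKO and 2 rose in Glb1KO, with sums of 4990 to 5520 CPM in DKO, 6100 to 6350 CPM in Glb1KO, 5790 to 6460 CPM in Neu3KO and 5680 to 6100 CPM in WT. Snap25, Syt1 and Eno2 were at -0.09, -0.10 and -0.02 in DKO, none of them called. Of 8 hindbrain and spinal neuron markers, 6 were tested, and 4 of these fell in DKO and 3 in Glb1KO, with sums of 20.4 to 41.0 CPM in DKO, 13.8 to 31.6 CPM in Glb1KO, 13.9 to 73.9 CPM in Neu3KO and 62.5 to 101 CPM in WT. Slc6a5 was at -1.32, Glra1 at -1.18 and Hoxb5 at -2.87 in DKO, and in 8 libraries, none of them WT, 1 to 4 of the 6 had no read.

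Of 6 endothelial and mural markers, 2 rose in DKO (with Slco1a4 at 0.60, and Flt1 at -0.21 (adjusted p = 0.0783) and Rgs5 at 0.17 (adjusted p = 0.429) not called), and of 5 choroid plexus markers Kcne2 fell in DKO (-0.78). Their sums ran from 234 to 267.1 CPM and 506 to 731 CPM in DKO, 224 to 298 CPM and 515 to 621 CPM in Glb1KO, 226 to 270 CPM and 357 to 531 CPM in Neu3KO, and 210 to 246 CPM and 429 to 821 CPM in WT. The part of these cell type differences in the values of the 26 genes was not tested. Within DKO, Lss and Srebf1 were lowest in the E libraries, whose microglia sums of 799.6 and 772.6 CPM were above the 625.3 to 740.1 CPM of the W libraries. The astrocyte sums went the other way, with 7345 and 7306 CPM in the E libraries and 7419 to 8075 CPM in the W libraries. Neither relation was tested.

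**Figure D5:**
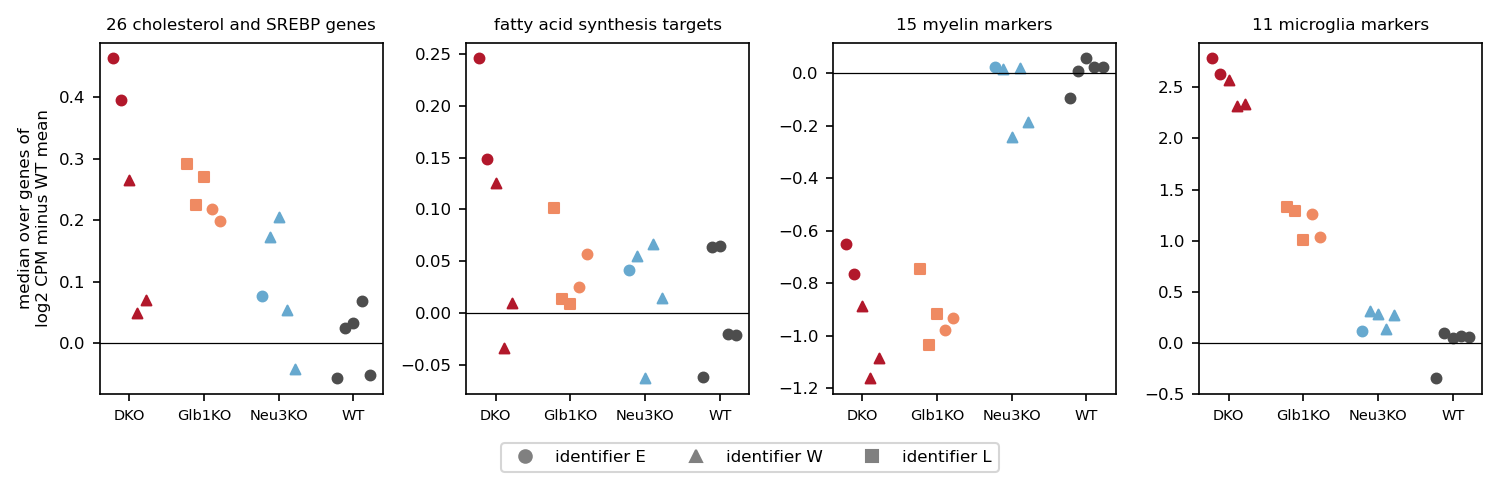
Median over the genes of a list of log2 CPM minus the WT mean, with 1 point per library by genotype and the marker shape giving the identifier letter. The panels show the 26 genes, the 17 further SREBP targets (titled fatty acid synthesis targets), the 15 myelin markers and the 11 microglia markers on separate scales. The 26 genes lie at 0.20 to 0.29 in Glb1KO and 0.05 to 0.46 in DKO, the 15 myelin markers lie below the WT libraries in both, and the 11 microglia markers lie above them.

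The authors' deposited table of DKO against WT lists all 26 genes, with 12 higher and none lower at an adjusted p under 0.05. Of the 32424 genes it lists, 5041 had an adjusted p under 0.05. Of the 12 members, 11 were also called higher in the edgeR fit. In the authors' deposited table Fdps is called (log2 0.88, adjusted p = 0.023) and Msmo1 is not (log2 0.44, adjusted p = 0.0541), while the edgeR fit called Msmo1 and not Fdps. Insig1 stands at 0.69 (adjusted p = 2.61e-12), Lss at 0.60 (adjusted p = 1.15e-14) and Srebf1 at 0.57 (adjusted p = 2.07e-06) in the authors' deposited table.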

How the data were processed

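RNA from a brain hemisphere was sequenced after poly(A) selection, per the labels' protocols, in 20 libraries of 4 genotypes with 5 libraries each. The authors deposited read counts per gene and FPKM values, and a table of DKO against WT with log2 fold changes and adjusted p-values. The submitters' processing notes name fastp, HISAT2 2.0.5, featureCounts 1.5.0-p3, DESeq2 1.20.0 and the build GRCm38 (mm10), with no strand setting.

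The deposited counts were tested with edgeR 4.0.16 (limma 3.58.1, R 4.3.3): genes were filtered with filterByExpr by genotype, scaled by TMM factors and fitted over all 20 libraries with a robust quasi-likelihood model, and F test p-values were adjusted by Benjamini-Hochberg over all 18336 genes tested, with a threshold of 0.05. Standard errors are the log2 fold change divided by the root of F, and 95% intervals use the t distribution on the residual degrees of freedom. FPKM values were described and not tested. The procedure was also tested on simulated data. Alternatives were RLE and upper-quartile factors, DESeq2 1.42.0, no filter, a filter of 1 CPM in 5 libraries, a fit of the compared genotypes alone, the replicate number as a block, the identifier letter as a term or a selection, and each library left out. The fits on W libraries and the count of overlapping genes were added after seeing the data. Same-numbered libraries of different genotypes had deviations correlated at -0.129 to 0.065, and 0 of 30 pairs exceeded 0.1, so the numbers were not taken to pair libraries. Between replicates the chi-square per gene was at least 3.44, so no library was counted as a duplicate.

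The 26 genes and all lists were chosen with earlier results of these data known. All 26 are named; other lists are named by up to 4 genes with the smallest adjusted p in DKO and in Glb1KO against WT, and cell type lists by up to 3 genes with the highest mean CPM, while Kcne2 and Slco1a4 were named after their values were seen. Some genes that this rule names are not reported here. Promoters come from RefSeq (GRCm38.p6), and exon overlaps from GENCODE M21. Python 3.11.15, pandas 2.3.3 and matplotlib 3.10.9 were used for motifs and plots.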

Additional observations from a re-analysis of the deposited data

Results flagged for a closer look

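Of 104 groups of 5 libraries tested for a library that stands apart from the other 4, 1 was found, while chance alone gives about 1 in 20 groups. It was Dhcr7 in WT, where replicate 3 had 35.6 CPM and the nearest other library 30.4 CPM, a gap of 0.767 of the whole range against a critical value of 0.71. Without that library Dhcr7 remained uncalled in DKO and in Glb1KO against WT.

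The effect of Neu3 loss differed between mice with and without Glb1 for Lss, by 0.37 on the log2 scale, and for Srebf1, by 0.60, each by the interaction test of edgeR (adjusted p = 0.0188 for Lss and 0.00678 for Srebf1). They were 2 of the 26 genes (7.69%), while 6.84% of all genes passed that test. Lss lost its call without DKO replicate 3 or without Neu3KO replicate 5. Among E libraries, with 1 Neu3KO library, Lss was at 0.38 and Srebf1 at 0.35.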

How the results depend on the processing

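The number of the 26 genes called by edgeR stayed within 1.5 times its value under other size factors, filters, DESeq2 and the fit of the compared genotypes alone, in all comparisons where the fit could be made. With DESeq2 it was 15 in DKO against WT, 9 in Glb1KO against WT and 2 for the interaction. Among the 15, Ggps1 was lower (log2 -0.14, adjusted p = 0.0458). Counts in this section stand without the share of all genes called, so they describe only how far the calls depend on the fit. Leaving out 1 library at a time gave 10 to 14 in DKO against WT, 7 to 8 in Glb1KO against WT, 0 to 0 in Neu3KO against WT, 3 to 4 in DKO against Glb1KO, 10 to 13 in DKO against Neu3KO and 1 to 2 for the interaction, with 1 where DKO replicate 3 or Neu3KO replicate 5 was left out.

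With the replicate number as a replicate block, the counts were 13 in DKO against WT, 8 in Glb1KO against WT, 0 in Neu3KO against WT, 3 in DKO against Glb1KO, 12 in DKO against Neu3KO and 2 for the interaction. The block added the call of Sc5d (log2 0.21, adjusted p = 0.0432) in DKO against WT, as did 11 other fits out of 20, and the numbers do not pair the libraries.

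The identifier letter moved the counts most. With the letter as a term Glb1KO against WT called 5 genes, and among E libraries the interaction called 0, with 1 Neu3KO library in that fit, where Lss was at 0.38 and Srebf1 at 0.35 on the log2 scale. Among W libraries DKO against Neu3KO called 6 genes, and Hmgcs1 was at -0.26 there, against 0.01 over all libraries. With only the W libraries of DKO, DKO against Glb1KO called 6 genes. The cause was not tested. Counts of 7 to 52 reads limit Fdps, which was called in DKO against WT in 7 of 20 fits with another setting, among them DESeq2 (log2 0.88, adjusted p = 0.0417) and edgeR with no filter on low counts (log2 0.88, adjusted p = 0.0305), and Neu3KO against WT had no call at this depth and number of libraries.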
